A study of Mus musculus with 50 samples.

Results

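The chemokines that call neutrophils through the receptor CXCR2 were followed in the colon of mice with TNBS colitis that were given A1007. The set holds 6 genes of the 56691 in the deposited table, taken by symbol: the ligand genes Cxcl1, Cxcl2, Cxcl3, Cxcl5 and Ppbp, and the receptor gene Cxcr2. Poly(A) RNA of distal colon was sequenced from 50 mice of the genotype labelled BALBC, in 5 groups of 10. Sham mice had no TNBS. The vehicle group had TNBS, trinitrobenzene sulfonic acid, a hapten whose instillation inflames the colon, and no A1007. The other groups had TNBS and A1007 at 10, 30 or 90 mpk, a unit given here as the labels write it. The series text asks for the molecular basis of the effect of A1007 in this colitis. A1007 is, per the series title, an oral agonist of AhR, the aryl hydrocarbon receptor. The sources used here give no age, sex or treatment time, and do not say what sham mice were dosed with. The labels number the libraries of a group as replicates 1 to 10. They are called mice below, and p-values measure the spread between these libraries.

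CXCL1, CXCL2, CXCL3, CXCL5 and PPBP are small secreted CXC chemokines with a Glu-Leu-Arg motif before the first cysteines, and all bind CXCR2, a G protein-coupled receptor carried above all by neutrophils. Macrophages, fibroblasts, endothelium and epithelium make CXCL1, CXCL2, CXCL3 and CXCL5 when IL-1, TNF or IL-17 act on them through NF-kappaB, and their short-lived mRNAs carry AU-rich elements. PPBP is stored in platelets and becomes an active chemokine after cleavage, and ligand gradients draw CXCR2-bearing neutrophils out of blood vessels into inflamed mucosa.

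The 5 ligand genes lay in one cluster on the plus strand of chromosome 5 (GRCm39, coordinates of whole genes as deposited). Cxcl5 ran from 90907219 to 90909483, Ppbp from 90916377 to 90917922, and Cxcl3 from 90933962 to 90937459. Cxcl1 followed at 91039100 to 91040974 and Cxcl2 at 91051730 to 91053797. The span of 146579 bases also held Pf4 and Cxcl15, which encode other CXC chemokines. Cxcr2 lay apart, on the plus strand of chromosome 1 from 74193148 to 74200405.

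Sequences before the start sites are shown because the word GGAATTTCC, a binding site of NF-kappaB (kappaB), was present in 3 of the ligand genes. Promoters came from RefSeq on GRCm38.p6, and 5 of the 6 genes had an entry there, Cxcl5 being the one without. Printed are the 120 bases before the start of 4 genes, with the kappaB word in capitals where present.
Cxcl1: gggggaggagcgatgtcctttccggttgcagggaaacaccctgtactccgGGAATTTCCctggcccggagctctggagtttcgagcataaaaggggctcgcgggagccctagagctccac
Cxcl2: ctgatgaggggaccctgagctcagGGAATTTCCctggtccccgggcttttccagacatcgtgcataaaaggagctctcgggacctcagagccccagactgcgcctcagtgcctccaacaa
Cxcl3: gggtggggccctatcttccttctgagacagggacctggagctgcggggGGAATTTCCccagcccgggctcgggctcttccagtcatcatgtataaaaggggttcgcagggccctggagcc
Ppbp: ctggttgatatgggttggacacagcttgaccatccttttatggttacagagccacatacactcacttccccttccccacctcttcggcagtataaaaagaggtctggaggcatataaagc
These windows are chr5:90891125-90891244, chr5:90903779-90903898, chr5:90785981-90786100 and chr5:90768398-90768517, all on the plus strand.

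The kappaB word lay 70 to 62 bases before the start of Cxcl1, 96 to 88 before that of Cxcl2 and 72 to 64 before that of Cxcl3. It was in 94 of 32851 promoters, a share of 0.286%, when the 250 bases before each start were searched on both strands. It was not found in the windows of Ppbp and Cxcr2. The TATA word TATAAAA, in 4.98% of promoters, stood 30 to 24 bases before the starts of Cxcl3 and Ppbp. The AP-1 word TGANTCA, in 6.75% of promoters, was found in Ppbp only. The AhR core GCGTG, in 28.2% of promoters, was found in Cxcl2 only, at 2 places, and no match overlapped one of another word.

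The AU-rich pentamer ATTTA, a mark of short-lived mRNAs, was counted in the 3' untranslated regions of GENCODE M21. Cxcl1 held 7 copies in 592 bases, Cxcl2 held 11 in 1494, Cxcl3 held 5 in 645 and Cxcl5 held 5 in 1111. As many or more were held by 0.469%, 0.736%, 3.30% and 12.9% of genes with regions of like length. Ppbp had 1 copy in 656 bases and Cxcr2 had 2 in 1818, counts reached by 59.1% and 72.3% of like regions. The densest 30 bases of the genes with the most are shown, with the pentamers in capitals.
Cxcl1: ATTTATTTAtgtATTTATTTAttccacaaa
Cxcl2: ATTTATTTAtctatgtATTTATTTATTTAt

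Libraries held 14373337 to 20446967 counts, and the groups' medians were 15842154 to 17877814. All 6 genes passed the filter on low counts. Cxcl3 and Ppbp reached 0.585 CPM (counts scaled to library size) in only 11 and 10 of the 50 libraries, none of them sham. Cxcr2 and Cxcl5 reached it in 20 and 34 libraries, again none of them sham, and Cxcl2 in 28, of which 1 was sham. A difference from sham was thus built into the passing of these genes, and least so for Cxcl1, with 5 sham libraries among 40. Levels are FPKM, fragments scaled to exon length and library size, and a gene was called at an adjusted p under 0.05. Tissue RNA cannot tell fewer cells of a type from less RNA per cell. All 15 tested acinar genes of the pancreas rose in vehicle against sham mice, and 3, 2 and 12 fell at 10, 30 and 90 mpk. They stood apart in 8 libraries, with over 500 CPM summed over 16 acinar genes against 28.1 to 338.9 in the other 42. These libraries were vehicle replicates 2, 5, 6 and 9, replicate 7 at 10 mpk, replicate 2 at 30 mpk and replicates 2 and 4 at 90 mpk. Vehicle replicates 5 and 9 were also the highest mice for these chemokines, and results are given with and without the 8 libraries where this ends a call. In 2 other libraries, replicate 6 at 10 mpk and replicate 1 at 30 mpk, Xist was under 1 FPKM.

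All 6 genes rose in TNBS vehicle mice against sham mice, by 59.6-fold for Cxcl1 up to 1404-fold for Cxcl3. Of 17928 genes tested, 31.7% were called in this comparison and 18.2% were called higher. In sham colon every one of the 6 was at or under 0.83 FPKM in every mouse, and Cxcl1 was the most abundant ligand in 7 of 10. The rise was very uneven, with the highest vehicle mouse at 99.0 times the lowest for Cxcr2 and at 3164 times for Cxcl2.

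Cxcl2, a chemokine of activated macrophages and stroma, reached the highest level. It was 0 to 0.45 FPKM in sham mice with a median of 0.055. In vehicle mice the lowest was 0.08, the median 10.2 and the highest 253.1 FPKM, a mean of 56.3 ± 86.4 (SD, n = 10) against 0.1 ± 0.138. The groups overlapped, since 7 of 10 vehicle mice were above the highest sham mouse. Against sham this was a log2 fold change of 9.16 (SE 1.59, adjusted p = 0.000299). With library weights by group in place of equal weights it was 6.38 with adjusted p = 0.0612, and the call ended.

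Cxcl5, a chemokine known above all from epithelium and stroma, was a ligand whose groups lay apart. Sham mice held 0.03 to 0.22 FPKM, with a median of 0.09. Vehicle mice held 1.02 to 140.0 FPKM, with a median of 17.7 and a mean of 39.6 ± 50.3. All 10 vehicle mice were above all 10 sham mice. Such a separation upward was seen for 3.08% of tested genes. It rose by 8.50 on the log2 scale (SE 1.13, adjusted p = 2.22e-05).

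Cxcl1, a chemokine of stroma, epithelium and macrophages, had the highest ligand level in sham colon and the smallest fold. It was at 0.03 to 0.83 FPKM in sham mice with a median of 0.305. In vehicle mice it ran from 0.41 to 75.8 FPKM, with a median of 5.94 and a mean of 18.3 ± 24.9. Of 10 vehicle mice, 7 were above the highest sham mouse. Its log2 fold change was 5.90 (SE 1.00, adjusted p = 0.000235).

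Cxcl3, a close relative of Cxcl1 and Cxcl2, was barely detected in sham colon, with 5 counts over all 10 mice and 7 of them at 0. It was 0 to 55.6 FPKM in vehicle mice, with a median of 2.06 and a mean of 13.3 ± 21.3. Here 8 of 10 vehicle mice were above the highest sham mouse, and 1 was at 0. It rose by 10.45 on the log2 scale (SE 1.85, adjusted p = 0.000343), a size that rests on those 5 counts.

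Ppbp, the platelet ligand, was 0 to 0.11 FPKM in sham mice and 0.05 to 24.7 FPKM in vehicle mice. The vehicle median was 2.86 and the mean 5.53 ± 7.75, and 9 of 10 were above the highest sham mouse. Its log2 fold change was 6.75 (SE 1.11, adjusted p = 0.00015).

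Cxcr2, the receptor, separated the groups as Cxcl5 did. Sham mice held 0 to 0.1 FPKM and 18 counts between them. Vehicle mice held 0.21 to 20.8 FPKM, with a median of 4.59 and a mean of 6.53 ± 6.82. Every vehicle mouse was above every sham mouse, and the log2 fold change was 7.58 (SE 0.92, adjusted p = 7.80e-06). Cxcr1, the neighbouring receptor gene of the same family, was at 0 in 8 of 10 sham mice and at most 0.88 FPKM in vehicle mice, and did not pass the filter.

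**Figure D1:**
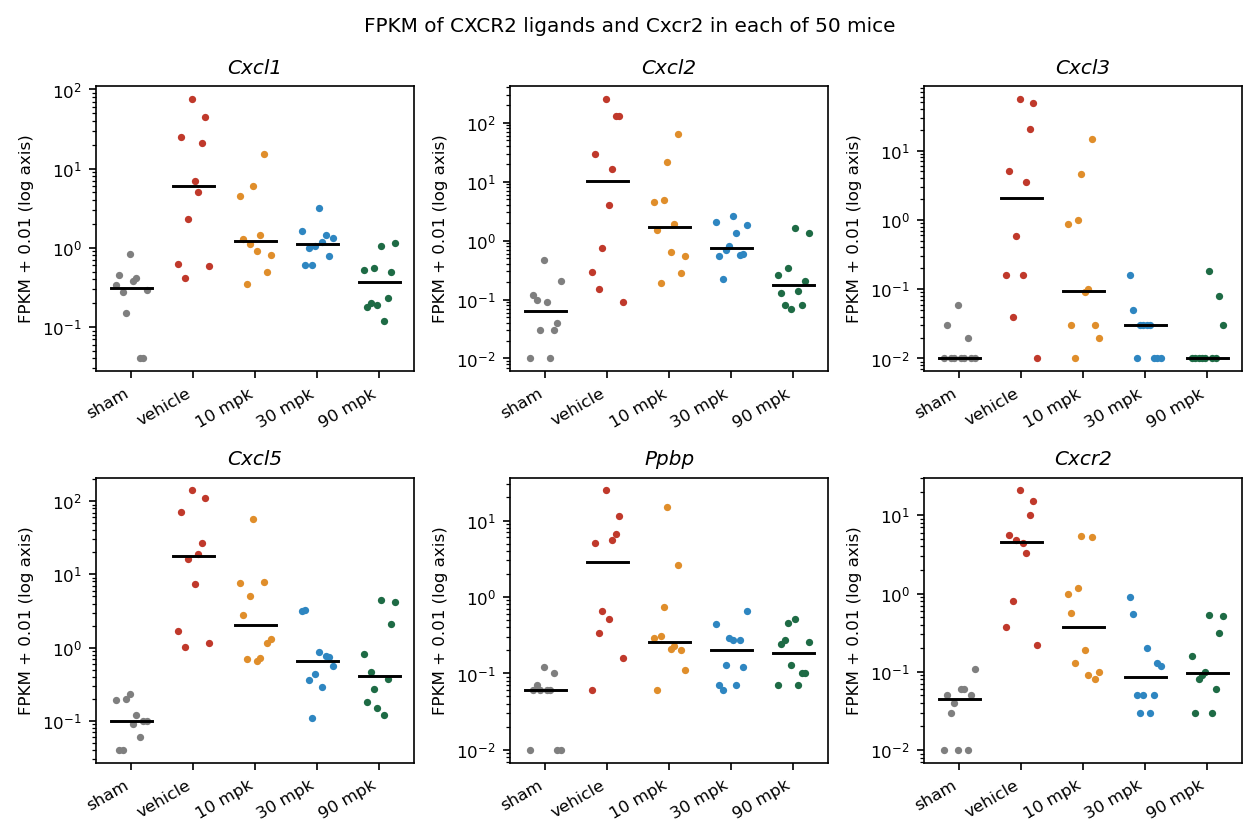
FPKM plus 0.01 on a log axis for the 5 ligands and Cxcr2, with 1 point per mouse, 10 mice per group and a black line at the group median. Vehicle mice cover the widest range for every gene, and every mouse at 30 or 90 mpk lies below the vehicle median of the gene.

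The same vehicle mice were high for the whole set. Replicate 5 was the highest of 10 for all 6 genes, and replicates 5 and 9 were among the top 3 for all 6. Replicates 1, 3 and 10 were among the lowest 4 for all 6. The top 3 mice held 91.0% of the summed Cxcl2 FPKM of the vehicle group, 92.9% of that of Cxcl3 and 70.3% of that of Cxcr2. Without the 4 vehicle libraries high in pancreatic genes, all 6 genes were still called higher than in sham, at log2 fold changes of 3.93 for Cxcl1 to 8.64 for Cxcl3. The median of the 6 vehicle mice left was 0.505 FPKM for Cxcl2 and 8.89 for Cxcl5, against 79.8 and 91.0 in the 4 left out. Whether the pancreatic RNA had a part in these levels was not tested.

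In edgeR all 6 genes were lower at 30 and 90 mpk of A1007 than in vehicle mice, while at 10 mpk Cxcl1 alone was called. These comparisons share the vehicle mice with each other and with the comparison against sham. At 30 mpk all 6 were called lower, where 31.4% of tested genes were called and 17.9% were called lower. At 90 mpk all 6 were again called lower, where 18.2% were called and 11.1% lower. An exact rank-sum test, which weighs only order, called 3 of 6 at 30 mpk, where it called 27.2% of genes. At 90 mpk it called 4 of 6, where it called 15.1% of genes. At 10 mpk, where 5.75% of genes were called and 2.91% lower, 1 of 6 was called. The unadjusted edgeR p of the 6 genes at 10 mpk ran from 0.00113 to 0.0607.

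Cxcl1 was 0.34 to 15.5 FPKM at 10 mpk, with a median of 1.21. It was 0.59 to 3.21 FPKM at 30 mpk, with a median of 1.09, and 0.11 to 1.14 FPKM at 90 mpk, with a median of 0.355. The highest mouse at 30 mpk stood below 6 of the 10 vehicle mice, while 2 vehicle mice were below the lowest mouse at 30 mpk. The log2 fold changes against vehicle were -2.52 at 10 mpk (SE 0.72, adjusted p = 0.0322), -3.83 at 30 mpk (SE 0.77, adjusted p = 0.000363) and -5.34 at 90 mpk (SE 0.85, adjusted p = 5.53e-05). The call at 10 mpk ended without vehicle replicate 5 (-1.96, adjusted p = 0.101) or without vehicle replicate 9 (-2.19, adjusted p = 0.0561). Leaving out replicate 2, 6, 7 or 9 of the 10 mpk group ended it too, with adjusted p of 0.0570 to 0.0639. Without the 8 libraries high in pancreatic genes the changes were -0.48 (adjusted p = 0.744) at 10 mpk, -1.80 (adjusted p = 0.0696) at 30 mpk and -3.32 (adjusted p = 0.0294) at 90 mpk.

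Cxcl2 was 0.18 to 64.9 FPKM at 10 mpk, with a median of 1.68. It was 0.21 to 2.58 FPKM at 30 mpk, with a median of 0.73, and 0.06 to 1.64 FPKM at 90 mpk, with a median of 0.165. Every mouse at 30 and 90 mpk was below the vehicle median of 10.2. Against vehicle Cxcl2 differed by -2.51 (log2) at 10 mpk (95% interval -4.50 to -0.51, adjusted p = 0.117), -5.63 at 30 mpk (SE 1.17, adjusted p = 0.000545) and -7.06 at 90 mpk (SE 1.29, adjusted p = 0.000215). Low vehicle mice overlapped both groups, and an exact rank-sum test, which weighs only order, gave adjusted p = 0.380 at 30 mpk and 0.0635 at 90 mpk. With library weights the adjusted p was 0.118 and 0.0529, and in limma on log2(FPKM + 0.1) it was 0.0605 at 30 mpk. For Cxcl1 the rank-sum test gave adjusted p = 0.256 at 30 mpk and 0.0142 at 90 mpk.

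Cxcl3 was nearly absent at the higher doses. Its median was 0.085 FPKM at 10 mpk with a range of 0 to 14.8. At 30 mpk it was 0 to 0.15 FPKM and at 90 mpk 0 to 0.17, with 4 and 7 of 10 mice at 0. No mouse at 30 or 90 mpk reached the vehicle median of 2.06. The log2 fold changes were -2.69 at 10 mpk (95% interval -4.74 to -0.64, adjusted p = 0.101), -8.93 at 30 mpk (SE 1.59, adjusted p = 0.000101) and -8.78 at 90 mpk (SE 1.56, adjusted p = 0.000158). Summed over 10 mice there were 7556 counts in vehicle, 1307 at 10 mpk, 15 at 30 mpk and 18 at 90 mpk.

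Cxcl5 was 0.65 to 57.0 FPKM at 10 mpk, with a median of 2.05. At 30 mpk it was 0.1 to 3.22 FPKM and at 90 mpk 0.11 to 4.42, with medians of 0.645 and 0.405. At 30 mpk 8 of 10 mice, and at 90 mpk 7 of 10, were below the lowest vehicle mouse. The log2 fold changes were -2.27 at 10 mpk (95% interval -3.98 to -0.55, adjusted p = 0.0997), -5.26 at 30 mpk (SE 1.01, adjusted p = 0.000225) and -4.97 at 90 mpk (SE 0.98, adjusted p = 0.000492). Without the libraries high in pancreatic genes the fall at 90 mpk was -2.78 with adjusted p = 0.0947, and that at 30 mpk stayed called at -3.72 (adjusted p = 0.00557).

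Ppbp was 0.05 to 14.9 FPKM at 10 mpk, where a single mouse, replicate 5, held 76.2% of the group's sum. At 30 mpk it was 0.05 to 0.64 FPKM and at 90 mpk 0.06 to 0.51, all below the vehicle median of 2.86. The log2 fold changes were -1.50 at 10 mpk (95% interval -3.07 to 0.07, adjusted p = 0.244), -4.52 at 30 mpk (SE 0.96, adjusted p = 0.000644) and -4.65 at 90 mpk (SE 0.97, adjusted p = 0.000792). The rank-sum test gave adjusted p = 0.0501 and 0.0635 at 30 and 90 mpk. Without the libraries high in pancreatic genes the fall at 90 mpk was -3.54 with adjusted p = 0.0644. Without replicate 5 of the 10 mpk group Ppbp at 10 mpk was called, at -3.41 (adjusted p = 0.0028).

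Cxcr2 was 0.07 to 5.40 FPKM at 10 mpk, with a median of 0.365. At 30 mpk it was 0.02 to 0.90 FPKM and at 90 mpk 0.02 to 0.52, with medians of 0.075 and 0.085. At 30 mpk 8 of 10 and at 90 mpk 7 of 10 mice were below the lowest vehicle mouse. The log2 fold changes were -2.26 at 10 mpk (95% interval -3.77 to -0.75, adjusted p = 0.0617), -5.01 at 30 mpk (SE 0.89, adjusted p = 9.27e-05) and -5.20 at 90 mpk (SE 0.90, adjusted p = 0.000117). Both calls stayed under the rank-sum test and without the libraries high in pancreatic genes. At 10 mpk Cxcr2 passed with DESeq2 (adjusted p = 0.0482) and without vehicle replicate 1, 3 or 10 (adjusted p = 0.0352 to 0.0451).

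**Figure D2:**
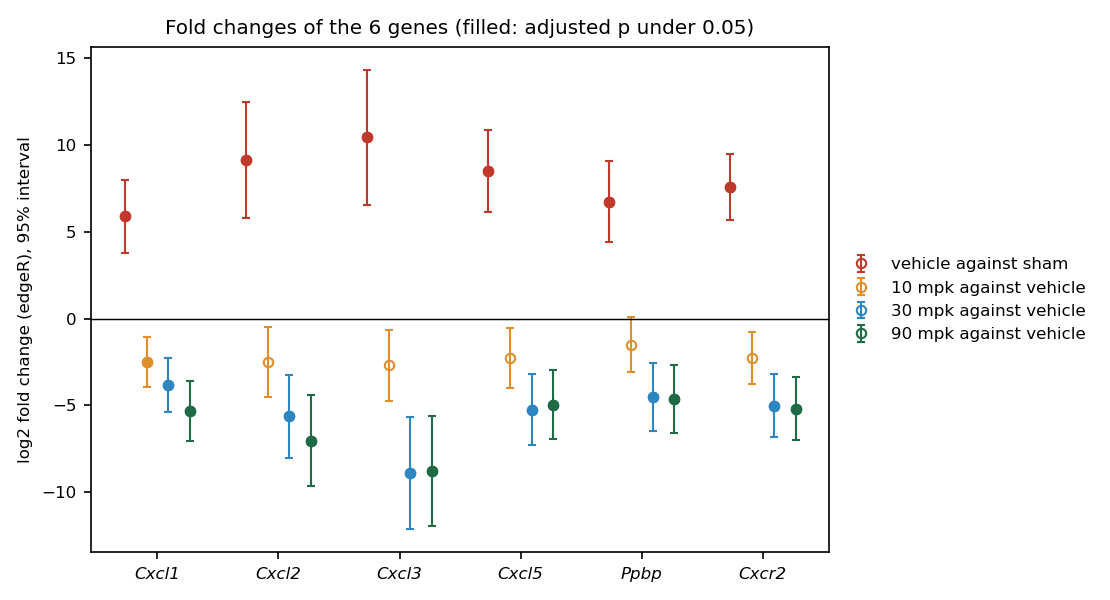
Log2 fold changes from edgeR with 95% intervals for each gene, for vehicle against sham and for each dose against vehicle. Filled points were called at an adjusted p under 0.05: all 6 genes are above 0 in vehicle mice and below 0 at 30 and 90 mpk, and at 10 mpk only Cxcl1 is filled.

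At 10 mpk the mice split as the vehicle mice did. Replicates 5 and 8 were each the highest mouse for 3 of the 6 genes and both were among the top 3 for all 6. Replicate 8 held 14.8 FPKM of Cxcl3 and 64.9 of Cxcl2, while replicate 5 held 57.0 of Cxcl5 and 14.9 of Ppbp. With replicate 5 or replicate 8 left out, 4 of 6 genes were called lower than vehicle in place of 1, where 13.6% and 5.82% of all tested genes were called.

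Between doses few differences passed the test. Cxcl3 was lower at 30 than at 10 mpk (log2 fold change -6.24, SE 1.61, adjusted p = 0.0350), the 1 gene of the set called where 2.01% of tested genes were. That call ended without replicate 8 of the 10 mpk group (-4.72, adjusted p = 0.138). It also ended without replicate 3, 4, 5, 8 or 9 of the 30 mpk group (adjusted p = 0.0506 to 0.0649). For 30 against 10 mpk DESeq2 called 5 of 6, where it called 796 of all tested genes. Between 90 and 10 mpk edgeR called none of the 6, where 0.1% of tested genes were called. Their unadjusted edgeR p ran from 0.000416 to 0.00579, with log2 fold changes from -2.70 to -6.09. DESeq2 called 5 of the 6, where it called 184 of all tested genes. Between 90 and 30 mpk edgeR called none and none had an unadjusted p under 0.05, where 0.368% of genes were called, and DESeq2 called none. Over the steps vehicle, 10, 30 and 90 mpk all 6 fell, with slopes from -1.74 for Ppbp to -3.42 for Cxcl3 per step on the log2 scale, where 19.3% of genes had a trend and 12.5% a falling one.

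Set mouse against mouse, those at 90 mpk were below those at 30 mpk in 90 of 100 pairs for Cxcl1 and 84 for Cxcl2, and in 45 to 54 for the other members. For Cxcl1, 8 of 10 mice at 90 mpk were below the lowest mouse at 30 mpk, and for Cxcl2, 6 of 10. The fitted difference was -1.51 for Cxcl1 (95% interval -3.20 to 0.18, adjusted p = 0.316) and -1.43 for Cxcl2 (95% interval -4.04 to 1.18, adjusted p = 0.563). The rank-sum test called both, at adjusted p = 0.0150 and 0.0444, and a fit of these 2 groups alone called Cxcl1 at adjusted p = 0.00856. These settings called 15.4% and 17.1% of all tested genes, so both calls stand among many. For Cxcl3, Cxcl5, Ppbp and Cxcr2 the change was -0.18 to 0.29, with intervals that reached from -5.45 to 5.76 at the widest.

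The immediate early genes moved with that difference between doses. These are genes such as Fos, Egr1 and Atf3 that respond within minutes, also to handling of tissue. Of 13 tested, 7 rose at 10 mpk and 10 at 30 mpk against vehicle, and none at 90 mpk. Their summed level was 941.8 to 4758 CPM at 30 mpk and 587.6 to 1591 CPM at 90 mpk, with medians of 2106 and 720.0. Replicate 6 was the highest mouse at 30 mpk both for the sum and for Cxcl1 and Cxcl2. Other mice went both ways. Replicate 7 at 30 mpk had a sum of 4001 CPM with 1.16 FPKM of Cxcl1 and 1.36 of Cxcl2. At 10 mpk replicate 8, the highest for Cxcl1 and Cxcl2, had a sum of 839.8 CPM. Replicate 7 of that group had the highest sum, 2927 CPM, with 1.42 FPKM of Cxcl1, and replicate 5 had 2572 CPM with 6.05 FPKM. Zfp36, the decay factor that binds ATTTA elements, rose at 30 mpk as well, at a log2 fold change of 1.53 (adjusted p = 0.000148), and was not called at 90 mpk (0.15, adjusted p = 0.765). Whether these genes and the level of Cxcl1 and Cxcl2 at 30 mpk share a source was not tested.

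Against sham mice the whole set was still raised at 10 mpk, and only some of its genes were at 30 and 90 mpk. At 10 mpk all 6 were higher than in sham, where 36% of genes were called and 21.3% called higher. All 10 of these mice were above all 10 sham mice for Cxcl5, a separation seen for 2.43% of genes. At 30 mpk 5 of 6 were higher, where 59% were called and 30.3% higher, and Cxcl3 was not (1.498, 95% interval -0.33 to 3.32, adjusted p = 0.148). Without sham replicate 5 Cxcl3 was called as well, at 2.35 (adjusted p = 0.0400). Without replicate 1 at 30 mpk, the library low in Xist, it was 0.46 (adjusted p = 0.659). That library held 9 of the 15 Cxcl3 counts at 30 mpk. At 90 mpk 4 of 6 were higher, where 45.2% were called and 23.4% higher. Of these, Cxcl2 (2.07, adjusted p = 0.0289) was lost without replicate 6 (1.47, adjusted p = 0.0901) or replicate 10 (1.71, adjusted p = 0.0658) of the 90 mpk group. It was also lost with no filter, with limma at either pseudocount and with the rank-sum test (adjusted p = 0.0621 to 0.105). Cxcl1 at 90 mpk was 0.460 ± 0.369 FPKM against 0.312 ± 0.233 in sham (log2 fold change 0.53, 95% interval -0.44 to 1.51, adjusted p = 0.370). Cxcl3 was not called at 90 mpk either (log2 fold change 1.65, 95% interval -0.38 to 3.67, adjusted p = 0.176). The largest remaining rise at 90 mpk was that of Cxcl5, at 1.31 ± 1.70 against 0.107 ± 0.0678 FPKM (3.51, SE 0.76, adjusted p = 0.00103). In a fit over all 50 mice, 3 of 6 were called at 30 mpk and 1 of 6 at 90 mpk, where 50.2% and 24.5% of all genes were called. In limma on log2(FPKM + 0.5), Cxcl3 and Ppbp were not called at 10 mpk (adjusted p = 0.0778 and 0.0642), nor was Cxcr2 at 30 mpk (adjusted p = 0.0681). The rank-sum test did not call Cxcr2 at 30 mpk either (adjusted p = 0.0835).

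The most abundant ligand differed between groups. Summed over the 5 ligands, sham mice held 0.15 to 1.66 FPKM and vehicle mice 1.93 to 549.2, with medians of 0.535 and 35.1. The medians at 10, 30 and 90 mpk were 4.99, 2.94 and 1.28 FPKM. Cxcl1 made up a median of 55.0% of the sum in sham mice and 16.3% in vehicle mice. Cxcl5 made up 45.8% in vehicle mice and was the most abundant ligand in 7 of 10, with Cxcl2 first in the other 3. The 3 were replicates 5, 8 and 9, which held the most Cxcl2. At 30 mpk Cxcl1 was first in 5 of 10 mice with a median share of 40.01%, and at 90 mpk Cxcl5 was first in 6 of 10 with 47.5%. In some sham and 90 mpk mice the order rests on a few counts. Replicate 7 at 90 mpk held 3 counts of Cxcl1, 4 of Cxcl2 and 3 of Cxcl5. Sham replicate 9 held 1 count of Cxcl1 and 3 of Cxcl5.

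Shares compare genes by FPKM, which depends on the exon length used. The deposited lengths count every annotated exon, at 3498 bases for Cxcl3 and 1875 for Cxcl1, while their longest coding transcripts in GENCODE M21 have 1016 and 953. With transcript lengths, Cxcl5 was first in 6 of 10 vehicle mice at a median share of 38.8%, Cxcl3 had 10.9% in place of 4.59%, and Cxcl1 was first in 8 of 10 mice at 30 mpk and 6 of 10 at 90 mpk. The shares were not tested.

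**Figure D3:**
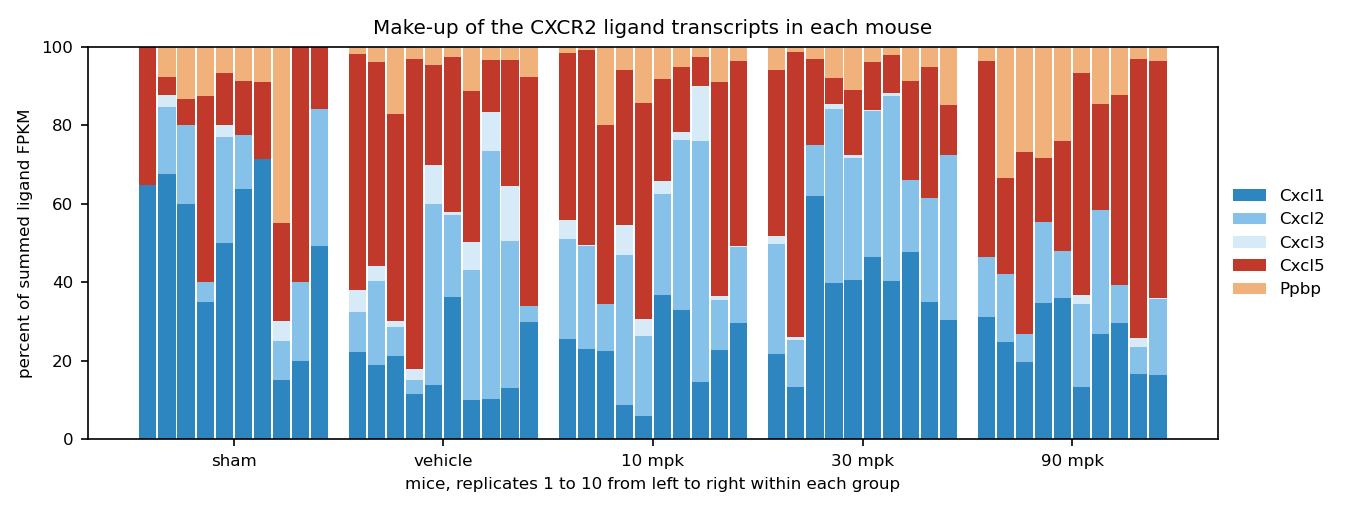
Percent of the summed FPKM of the 5 ligands that each gene made up, 1 bar per mouse, replicates 1 to 10 from left to right in each group. Cxcl1 is the largest part in 7 of 10 sham mice and Cxcl5 in 7 of 10 vehicle mice, with Cxcl2 the largest in vehicle replicates 5, 8 and 9.

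Neutrophil genes moved with the set. Of 12 tested mature neutrophil markers 11 rose in vehicle mice, with a median log2 fold change of 5.66 against 0.02 over all genes. Of these 12, 6 fell at 10 mpk, 10 at 30 mpk and 11 at 90 mpk. S100a9, an abundant cytoplasmic protein of neutrophils, ran from 6.58 to 3904 FPKM in vehicle mice, with a median of 189.1, and from 0.09 to 1.88 in sham mice. At 30 and 90 mpk its medians were 2.52 and 1.65 FPKM. Summed over the 15 markers, vehicle mice held 267.0 to 5420 CPM against 253.9 to 487.7 in sham. The sham sum was mostly Mxd1 and Ly6g, at 54.0 and 32.3 FPKM, and Mxd1 was not called in vehicle mice. Of 8 granule genes of immature neutrophils Ltf alone passed the filter. Ngp was 0 to 80.3 FPKM in vehicle mice, and Mpo and Elane were at most 0.65 FPKM in any mouse.

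The genes whose levels ran most like each member's differed between members. Likeness is Spearman's rho of log2 CPM over the 40 TNBS mice, a description over mice that share treatment groups. The 5 genes most like Cxcr2 were Csf3r (rho 0.925), the receptor of the neutrophil growth factor G-CSF, S100a8, S100a9, Slc11a1 and Trem1. Those most like Cxcl5 were S100a9 (0.951), Clec4d, S100a8, Csf3r and Il1b. Those most like Cxcl1 were Socs3 (0.902), Ier3, Il6, Timp1 and Il1b, and the list for Cxcl2 held Timp1, Socs3, Il6, Ier3 and Ccl7 (0.853 to 0.825). Cxcl3 was most like Ccl7 (0.875), Slpi, S100a9, Ccl2 and Clec4d. Ppbp had no close match, with Rad18 first at 0.746. Among the members the closest pairs were Cxcl1 with Cxcl2 at 0.939 and Cxcl5 with Cxcr2 at 0.931, and the least alike were Cxcl5 and Ppbp at 0.603.

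**Figure D4:**
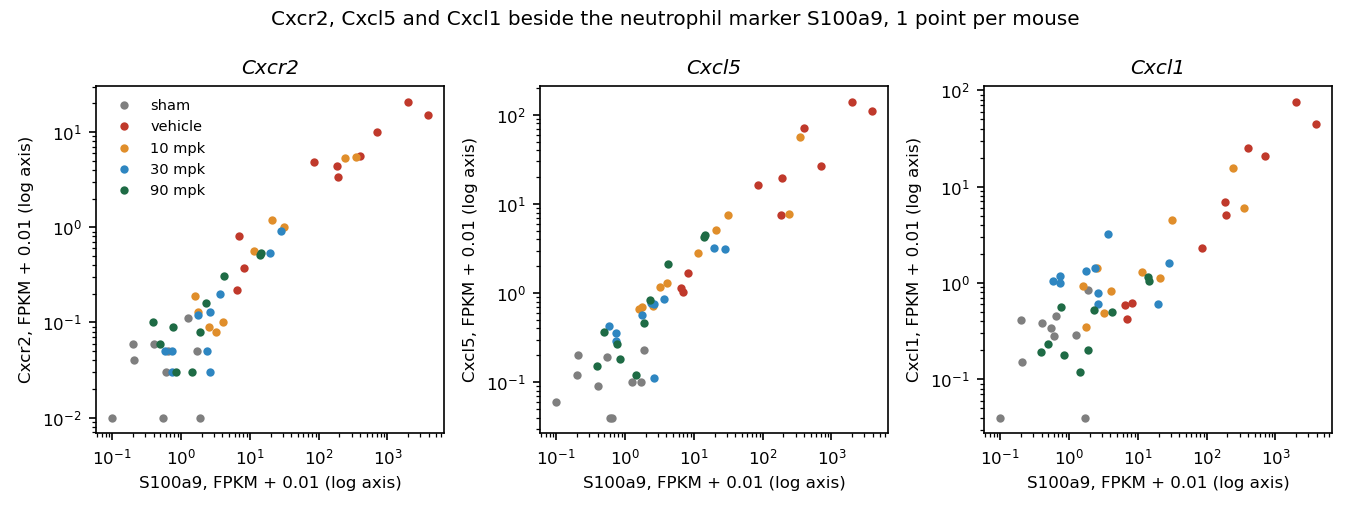
FPKM plus 0.01 of Cxcr2, Cxcl5 and Cxcl1 against that of S100a9, both on log axes, 1 point per mouse and coloured by group. Cxcr2 and Cxcl5 are higher in mice with more S100a9, and in the panel of Cxcl1 8 of 10 mice at 90 mpk lie below all 30 mpk mice.

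Measured beside Csf3r, Cxcr2 was 0.469 to 1.03 times the Csf3r FPKM in the 8 vehicle mice with at least 30 Cxcr2 counts, with a median of 0.753. In 5 such mice at 10 mpk the ratio was 0.269 to 0.963 with a median of 0.481. Beside S100a8, the partner of S100a9, the order was the other way, with medians of 0.0441 in vehicle and 0.129 at 10 mpk in the same mice. These mice were chosen by their Cxcr2 counts, the ratios were not tested, and only 1 mouse each at 30 and 90 mpk had as many.

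For Ppbp, platelet genes were looked at beside it. Pf4, its neighbour in the cluster and also a platelet chemokine, rose by 2.78 in vehicle mice (log2, adjusted p = 1.78e-05) and fell by 1.59 at 30 mpk and fell by 1.94 at 90 mpk. At 10 mpk it was -0.68 against vehicle (adjusted p = 0.189). Its level was 13.0 to 84.2 FPKM in vehicle and 3.22 to 7.89 in sham mice. Of 12 platelet markers 5 were tested, of which 3 rose in vehicle mice and 1 fell. Itga2b rose by 0.84 (adjusted p = 0.00164) and was not called at any dose, while Gp9, Treml1, Tubb1 and Gp5 had group medians of at most 0.105 FPKM. The summed platelet list was 41.0 to 115.6 CPM in vehicle mice, with replicate 5 the highest, and 20.7 to 27.2 in sham. Its part in the level of Ppbp was not tested.

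The cytokines that induce these ligands rose and fell with them. All 8 tested inducers rose in vehicle mice (median log2 fold change 5.09), and 3, 8 and 8 of them fell at 10, 30 and 90 mpk. Il6, a cytokine of stroma and myeloid cells, rose by 8.37 (adjusted p = 0.000198) and fell at the 3 doses, with log2 fold changes of -3.95, -5.28 and -6.29. Il1b rose by 5.59 and fell at 30 mpk (-4.09) and 90 mpk (-4.48), and was -1.92 at 10 mpk (adjusted p = 0.0915). Il1a rose by 5.70 and fell at the higher doses (-5.20 and -4.94). Il17a and Il17f were at most 0.49 FPKM in any mouse and did not pass the filter. Csf3, which encodes G-CSF, did not pass either, and was 0 in all sham mice and 0 to 23.6 FPKM in vehicle mice.

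Between cytokine and chemokine stand receptors, adaptors and transcription factors. Of 12 NF-kappaB and AP-1 factors 6 rose in vehicle mice, with a median of 0.50, and 0, 3 and 5 fell at the 3 doses. Cebpb, a factor of acute-phase genes, rose by 2.26 and fell at 30 mpk (-1.42) and 90 mpk (-2.06), while Nfkb2 and Nfkbie rose by 0.44 and 0.56 and were not called at any dose. Of 14 receptors and adaptors of the inducers 8 rose and 1 fell, and 3, 11 and 8 fell at the doses. Il1r1, the signalling receptor of IL-1, was among them with -0.58, -1.07 and -0.89. Of 9 mRNA decay and stability factors 2 rose and 1 fell in vehicle mice.

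Downstream of the receptor, 13 of 16 CXCR2 signalling genes rose in vehicle mice, with a median of 0.67, and 1, 10 and 6 fell at 10, 30 and 90 mpk. Fgr, a Src-family kinase of myeloid cells, rose by 1.99 and fell at all doses (-0.97, -1.25 and -1.24). Of 11 genes of vessel adhesion 10 rose, among them Selp, the P-selectin on which neutrophils roll, by 3.22, and Itgam, a subunit of a neutrophil integrin, by 3.37. Of 11 tested genes that cut or anchor chemokines, 8 rose and 1 fell. Mmp9 in that list rose by 4.44 and fell at all doses (-1.58, -2.51 and -2.67).

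Neutrophils also follow complement, lipid and CC chemokine signals. Of 14 such ligands and receptors 12 rose in vehicle mice, and 9, 12 and 11 fell at the 3 doses. C5ar1, the receptor of complement C5a, rose by 3.03 and fell at all doses (-1.41, -2.40 and -2.43). Of 12 other CXC chemokines and receptors 5 rose, and 1, 3 and 3 fell. Cxcl9 and Cxcl10, which bind another receptor on lymphocytes, were not called in vehicle mice (0.26, adjusted p = 0.689, and 0.55, adjusted p = 0.376). Cxcl15, another chemokine of the cluster, was at most 0.12 FPKM in any mouse.

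Other cell types also moved beside the set. All 12 monocyte and macrophage markers rose in vehicle mice, and 6, 9 and 11 fell at the doses, with summed levels of 161.9 to 217.1 CPM in sham and 327.0 to 970.5 in vehicle mice. All 8 fibroblast markers rose, and 1, 6 and 6 fell, with sums of 999.0 to 1704 CPM and 3746 to 9263 CPM. Of 9 epithelial markers, which define the labelled tissue, 1 fell in vehicle mice and 4 rose at 30 mpk, and their sums were 6288 to 10270 CPM over all groups. Of 8 mast cell and basophil markers 7 rose and 1 fell in vehicle mice, and none fell at any dose. No lymphocyte marker of 9 was called in vehicle mice. The part of these cells in the levels of the 6 genes was not tested. Of 7 tested AhR targets 1 rose and 1 fell in vehicle mice, and 1, 3 and 2 fell at the doses. Cyp1b1, the AhR target that rose, by 4.55, fell at all doses (-3.35, -3.97 and -4.27).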

How the data were processed

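Per the file headers, the authors deposited 1 table with raw counts and FPKM values of each gene, exon lengths, symbols and GRCm39 coordinates. The submitters' processing notes name cutadapt 1.9.1, HISAT2 2.2.1, HTSeq 0.6.1 and DESeq2. How strand and multi-mapped reads were handled is not given in the sources used here, and Cxcl1, Cxcl2 and Cxcl3, close paralogs, may share reads. Where a gene had 500 counts or more, 99.997% of deposited FPKM values were within 1% of the value recomputed from counts and lengths.

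Counts were tested with edgeR 4.0.16 in R 4.3.3 (quasi-likelihood, robust, TMM, filterByExpr count minimum 10, 17928 genes) with Benjamini-Hochberg adjustment. Every adjusted p is from that test unless another is named. Sham comparisons used 20 mice, the others and the trend (steps 0 to 3) the 40 TNBS mice. Alternatives were RLE and upper-quartile scaling, DESeq2 1.42.0, limma 3.58.1 on log2 FPKM, an exact rank-sum test on log2 CPM, library weights by group (voom), other sample sets, no filter, a replicate block and each mouse left out. Leaving out libraries high in pancreatic genes or low in Xist was chosen after seeing the data.

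The members and the 28 lists were chosen with earlier results of these data known. Named genes were the 6 members, up to 3 called genes per list with the smallest p in vehicle against sham, and the 5 most like each member. Others (Zfp36, Fos, Egr1, Atf3, Mxd1, Ly6g, Ngp, Mpo, Elane, Csf3, Il17a, Il17f, Cxcl9, Cxcl10, Cxcl15, Cxcr1, low platelet genes) were named after their values were seen. The scripts were tested on simulated data.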

Additional observations from a re-analysis of the deposited data

Results flagged for a closer look

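In 14 of the 30 groups of 10 mice examined (6 genes in 5 groups), the highest mouse stood far from the other 9. In independent, normally spread values such a gap is seen in about 1 in 20 groups. These levels have a few high mice, and the same mice recur over genes, so 1 in 20 is no reference for them. None of the values was removed, and their causes were not tested.

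In sham mice, replicate 5 stood out at 0.83 FPKM of Cxcl1, 0.45 of Cxcl2 and 0.05 of Cxcl3, and replicate 10 at 0.1 FPKM of Cxcr2. All are low beside the vehicle medians. In vehicle mice, replicate 5 stood out at 253.1 FPKM of Cxcl2 and 24.69 of Ppbp. It was among the libraries high in pancreatic genes.

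At 10 mpk, replicate 8 stood out at 15.48 FPKM of Cxcl1, 64.9 of Cxcl2 and 14.8 of Cxcl3. Replicate 5 of that group stood out at 57.0 FPKM of Cxcl5, where the next mouse held 7.79, and at 14.89 of Ppbp, where the next held 2.58. At 30 mpk, replicate 6 held 3.21 FPKM of Cxcl1, and replicate 1, the library low in Xist, held 0.15 FPKM of Cxcl3. At 90 mpk, replicate 6 held 0.17 FPKM of Cxcl3.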

How the results depend on the processing

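The 6 rises in vehicle against sham mice, the 6 falls at 30 and 90 mpk and the 6 dose trends kept their direction under every alternative run. Counts of members called, in place of the 6 at 30 mpk against vehicle, were 3 with the rank-sum test, where 27.2% of all genes were called. They were 5 there with limma at 0.1, library weights and without the libraries high in pancreatic genes. In place of the 6 at 90 mpk against vehicle, they were 4 with the rank-sum test, where 15.1% of all genes were called. They were 4 there without the libraries high in pancreatic genes, where 681 of the 17928 genes were called, and 5 with weights. In place of the 6 in vehicle against sham, they were 5 with weights. For weights, limma at 0.1 and 30 mpk without the pancreatic libraries, no share of all genes is given beside these counts of members called. In place of 1 at 10 mpk against vehicle, they were 2 with DESeq2 and 0 with no filter, library weights, the rank-sum test, only the 2 groups compared, without libraries high in pancreatic genes and without those low in Xist. In place of 1 between 30 and 10 mpk, they were 5 with DESeq2, 3 without the pancreatic libraries, 3 without those low in Xist, and 0 with no filter, limma at either pseudocount, weights and rank-sum. In place of 0 between 90 and 10 mpk they were 5 with DESeq2 and 1 without the pancreatic libraries, and in place of 0 between 90 and 30 mpk they were 2 with rank-sum and 1 with only the 2 groups. With all 50 mice in 1 fit they were 3 at 30 mpk and 1 at 90 mpk against sham, in place of 5 and 4.

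Leaving out each mouse in turn gave 0 to 4 members called at 10 mpk against vehicle, 0 to 4 between 30 and 10 mpk, 5 to 6 and 3 to 4 at 30 and 90 mpk against sham, 6 throughout in the other comparisons with vehicle or sham and in the trend, and 0 throughout in the other comparisons between doses. Genes called ranged from 494 to 2436 at 10 mpk against vehicle, 159 to 1405 between 30 and 10 mpk, 9 to 28 between 90 and 10 mpk and 32 to 591 between 90 and 30 mpk.

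Genes called at 10 mpk against vehicle were 1030, and 545 with no filter, 599 and 588 with limma at pseudocounts of 0.5 and 0.1, 23 with weights, 0 with rank-sum, 4 with only the 2 groups, 33 without the pancreatic libraries and 580 without those low in Xist. Between 30 and 10 mpk they were 361, and 796 with DESeq2, 138 with no filter, 1192 without the pancreatic libraries and 870 without those low in Xist. Between 90 and 10 mpk they were 18, and 184 with DESeq2, 9 with limma at 0.1, 49 with rank-sum, 89 with only the 2 groups, 247 without the pancreatic libraries and 10 without those low in Xist. Between 90 and 30 mpk they were 66, and 234 with DESeq2, 2844 with weights, 586 with the replicate block, 2763 with rank-sum, 3072 with only the 2 groups, 126 without the pancreatic libraries and 107 without those low in Xist. Without the pancreatic libraries 681 were called at 90 mpk against vehicle in place of 3266, and 1186 in the trend in place of 3460. With all 50 mice 4399 were called at 90 mpk against sham in place of 8111. The causes were not tested.

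Signs of members turned between 90 and 30 mpk alone, where edgeR called none. Leaving out each mouse there gave -1.0897 to 1.1936 for Cxcl3, -0.1793 to 0.6727 for Cxcl5, -0.3769 to 0.1988 for Ppbp and -0.5540 to 0.5272 for Cxcr2. Cxcl3 was -0.0048 and -0.0398 with limma at 0.5 and 0.1, -0.3855 with weights, -0.0193 with rank-sum, and -0.1117 without replicate 9 at 90 mpk, in place of 0.15. Cxcl5 was -0.0784 with limma at 0.1, -0.1420 with weights, -0.0547 with rank-sum, and -0.0779 without replicate 10 at 90 mpk, in place of 0.29. Ppbp was 0.0214 without the libraries low in Xist, and 0.0213 without replicate 1 at 30 mpk, in place of -0.13. Cxcr2 was 0.0486 with limma at 0.1, 0.1703 with weights, 0.0029 with rank-sum, 0.3448 without the pancreatic libraries, 0.5276 without those low in Xist, and 0.1039 without replicate 2 at 30 mpk, in place of -0.18.

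Of 100 same-numbered pairs, 33 deviated together with r over 0.1 (r -0.306 to 0.533), and 10 of 50 libraries correlated best with their own number. The median r was highest for vehicle with 10 mpk, at 0.263. No chance level was worked out, so these values do not decide whether replicate numbers pair mice. The main test took the mice as unpaired. With the replicate block the call of Cxcl1 at 10 mpk ended (-2.30, adjusted p = 0.0697) and Cxcr2 was called in its place (-2.58, adjusted p = 0.0430), so that 1 member was called as before. The same exchange took place in limma at both pseudocounts, with adjusted p of 0.133 and 0.168 for Cxcl1 and 0.0364 and 0.0436 for Cxcr2. Depth limits the lowest groups most, with Cxcl3 summing to 15 and 18 counts over 10 mice at 30 and 90 mpk.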
